A study of Rattus norvegicus with 4 samples.

Results

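Cholesterol synthesis, uptake and efflux genes were followed in the brains of rats that had suffered an intracerebral hemorrhage, which is bleeding within the brain. The members were named genes, taken by symbol from the expression table: 32 of the 33 listed genes were found among the 17853 genes of the table, and Hsd17b7 was not matched by symbol and not analysed here. They comprised 17 enzymes of cholesterol synthesis, 5 genes of its feedback control, 2 sterol-sensing nuclear receptors, 4 genes of efflux, 2 of cholesterol ester and lipid droplet formation and 2 enzymes that oxidise cholesterol. No receptor for lipoprotein uptake was among the members, so uptake is described from a further list below.

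The 4 groups held 1 library each, from the side of the bleeding (ipsilateral) and the opposite side (contralateral) of rats 21 months old and of rats 13 months old. Every group carried the hemorrhage, so the contralateral side is tissue of an injured animal, and no tissue of rats without hemorrhage was analysed here. Strain, sex, hemorrhage model, time after the bleeding and the brain region sampled are not stated in the labels. RNA was pooled, and the protocol names 9 rat brains without saying whether each library drew on 9, so no value carries an error between animals.

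Brain cells make nearly all of their own cholesterol, because lipoproteins of the blood do not cross the blood-brain barrier, and most of it lies in myelin. Synthesis runs from acetyl-CoA through mevalonate and squalene to cholesterol, under transcription factors called SREBPs, which the escort protein Scap releases and the Insig proteins hold back when sterols are plentiful. When cells such as phagocytes take up membrane debris, surplus cholesterol is stored as esters in lipid droplets or leaves through ABC transporters onto apolipoprotein E, a program switched on by the oxysterol-sensing LXR receptors.

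Levels are RPKM, reads scaled to the length of the gene and the size of the library, as the authors deposited them. Levels of different genes are set side by side on that scale. The gene lengths used are not stated, so such comparisons between genes are less certain than those of a gene between libraries. RPKM summed to between 388632 and 402100 per library, and read depth is unknown, so counting error cannot be given and values of a few RPKM are the least certain. Differences are log2 ratios after adding 1 RPKM to each value, which understates the difference of low genes, and they were set beside those of the 12160 genes whose mean over the libraries was 1 RPKM or more. All 32 members passed that filter. Neuron markers summed to 1732 RPKM in the ipsilateral and 2094 RPKM in the contralateral library at 21 months, and to 1543 and 2138 RPKM at 13 months, so the label of brain tissue matched its markers. Mitochondrially encoded genes took 18.5% to 24.1% of the RPKM, less on each ipsilateral than on its contralateral side. Choroid plexus markers summed to 1068 RPKM ipsilaterally and 1799 RPKM contralaterally at 21 months, and to 671 and 1223 RPKM at 13 months, blood markers to 36.3 and 58.4 RPKM at 21 months, and to 53.0 and 61.7 RPKM at 13 months, and endothelial markers to 34.7 and 39.0 RPKM, and to 41.0 and 39.0 RPKM. Pineal gland markers stood at 27.7 RPKM in the contralateral library at 13 months and between 0.68 and 1.98 RPKM in the other libraries. How far such differences in the sampled tissue enter the levels of the members was not tested. In tissue RNA, fewer cells of a type and less RNA per cell cannot be told apart.

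The synthesis enzymes and the genes of sterol export and storage differed in how they lay on the bleeding side. Genes of LXR sensing, efflux and esterification had a median log2 ratio of ipsilateral over contralateral of 0.83 at 21 months and 1.23 at 13 months (8 genes), against 0.09 and 0.01 over all genes. The 17 synthesis enzymes had medians of 0.07 at 21 months, which was -0.03 with median-ratio scaling or with mitochondrially encoded genes left out of the scaling, and of -0.14 at 13 months. The medians of these groups were therefore 0.76 apart at 21 months and 1.37 apart at 13 months. By a size of at least 1.5-fold after adding 1 RPKM, the scale of every such count here, 8 of 32 members were higher ipsilaterally at 21 months and 7 at 13 months, against 13.0% of all genes at 21 months and 13.0% at 13 months. Plin2, Soat1, Ch25h, Abca1 and Nr1h3 passed that size at both ages, 5 of 32 members against 9.04% of all genes. No member was lower by as much at either age, against 1.80% of all genes at 21 months and 1.74% at 13 months. Members are genes of shared pathways and not replicates, and with single libraries no test was made at either age alone.

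**Figure D1:**
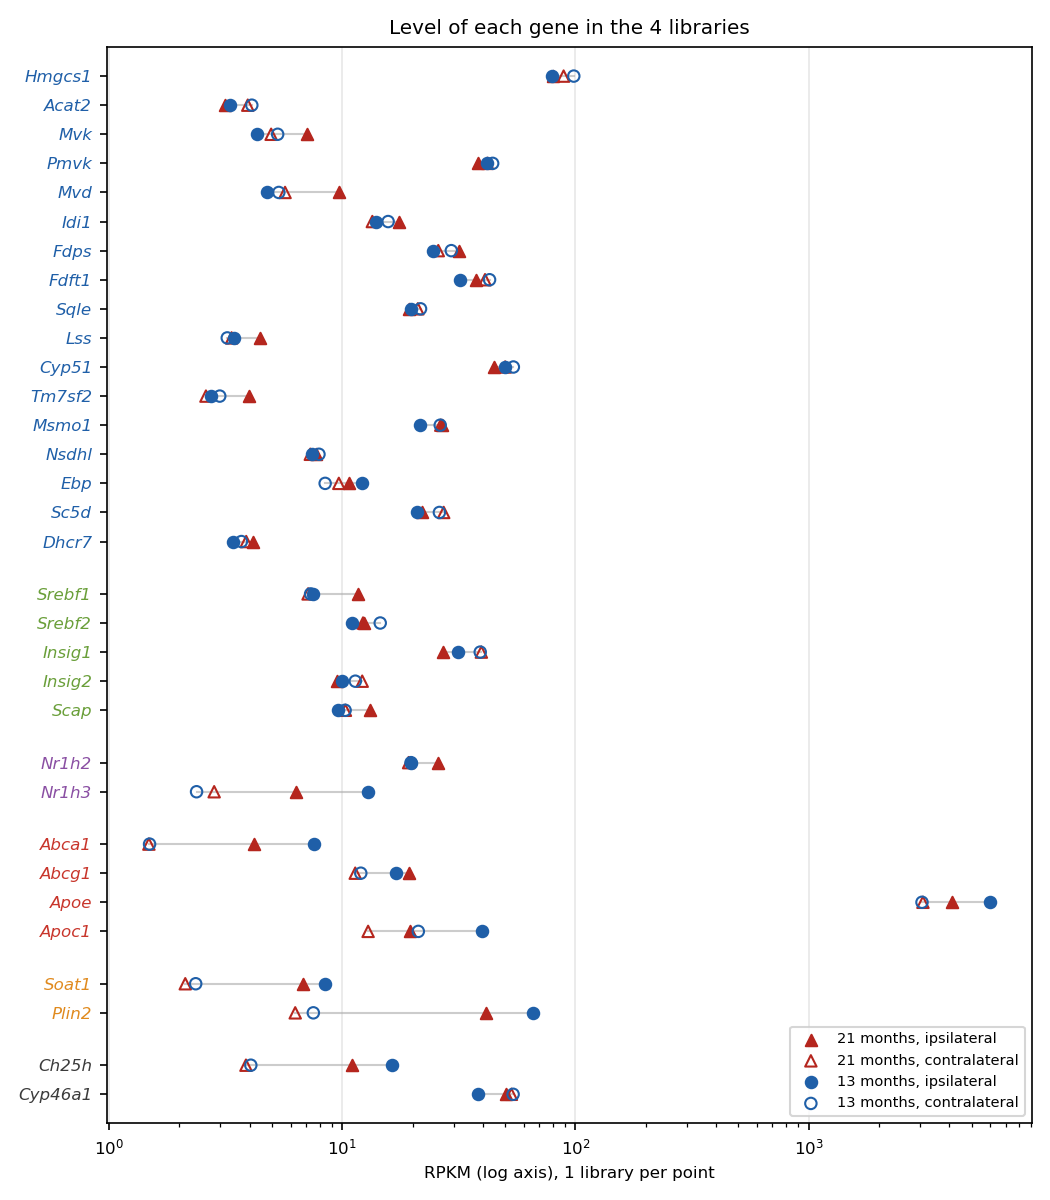
RPKM of the 32 members (log axis) in the 4 libraries, with the genes in groups by role and 1 point per library; filled symbols are ipsilateral, open symbols contralateral, triangles 21 months and circles 13 months. Filled symbols lie apart from open ones for Plin2, Soat1, Abca1, Nr1h3 and Ch25h, and close to them for most synthesis enzymes.

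A fit over both ages used the ages as repeats of the side comparison. limma, a linear model with spread shared across genes, was fitted to all 12160 genes with age as an additive term and Benjamini-Hochberg adjustment. By it 8 of 32 members rose on the ipsilateral side and 0 fell, against 13.3% of all genes that rose and 0.814% that fell. The 8 were Nr1h3, Abca1, Abcg1, Apoe, Apoc1, Soat1, Plin2 and Ch25h, so all 4 efflux genes and both storage genes passed, and 0 of 17 synthesis enzymes did. At an unadjusted p under 0.05 the synthesis count was also 0 in either direction, against 18.9% of all genes higher and 4.47% lower, and Insig1 was the 1 of 32 members on the lower side. The fit leans on 1 residual degree of freedom per gene, against 19.5 prior degrees of freedom, the weight of the spread shared across genes. Each SE given here is therefore mostly that shared spread, not the gene's own. With no filter on low genes the prior degrees of freedom were 1.56. The fit then called 0 members, with adjusted p in limma for these 8 between 0.0908 and 0.255.

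The entry steps of synthesis, which carry acetyl-CoA to mevalonate and its phosphates, had no common direction. Hmgcs1 (ENSRNOG00000016552, chromosome 2), the enzyme that forms HMG-CoA, was the most abundant synthesis enzyme, with 80.0 RPKM ipsilaterally and 89.0 RPKM contralaterally at 21 months, and 79.7 and 98.3 RPKM at 13 months. Both ipsilateral libraries lay below both contralateral ones, by log2 ratios of -0.15 and -0.30. Acat2, the cytosolic thiolase that condenses acetyl-CoA and not the esterifying enzyme once given the same name, had ratios of -0.25 at 21 months and -0.24 at 13 months. The phosphomevalonate kinase gene Pmvk had -0.13 and -0.08. Mvk (ENSRNOG00000049604, chromosome 12), mevalonate kinase, had 7.07 RPKM ipsilaterally and 4.95 RPKM contralaterally at 21 months, and 4.29 and 5.28 RPKM at 13 months. Mvd (ENSRNOG00000013376, chromosome 19), which makes isopentenyl diphosphate, had 9.65 and 5.68 RPKM at 21 months, and 4.75 and 5.34 RPKM at 13 months. For Mvk and Mvd the ipsilateral library at 21 months stood above the other 3, which lay within 4.29 to 5.68 RPKM, and Mvd was past 1.5-fold between the sides after adding 1 RPKM, with a log2 ratio of 0.67 at 21 months. With the libraries scaled by their median ratio that ratio of Mvd was 0.58, just short of the 0.585 that marks 1.5-fold.

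In the isoprenoid steps Idi1 and Fdps changed sign between the ages, and in the squalene steps Fdft1 and Sqle were lower ipsilaterally at both. Idi1, the isomerase of isopentenyl diphosphate, had 17.4 RPKM ipsilaterally and 13.4 RPKM contralaterally at 21 months, and 13.9 and 15.7 RPKM at 13 months. Fdps, which builds farnesyl diphosphate, had 31.5 and 25.8 RPKM at 21 months, and 24.4 and 29.3 RPKM at 13 months. In both genes the ipsilateral library was the higher at 21 months and the lower at 13 months. Fdft1, the squalene synthase gene at the branch toward sterols, had 37.6 and 40.9 RPKM at 21 months, and 31.8 and 42.8 RPKM at 13 months. Its log2 ratio of -0.42 at 13 months was the lowest of the synthesis enzymes, and 8.1% of all genes lay below it. Sqle, the oxygen-dependent squalene epoxidase and a control point of the pathway, had 19.4 and 21.1 RPKM at 21 months, and 19.6 and 21.6 RPKM at 13 months, so that its levels were nearly level across the libraries.

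Among the sterol steps, Lss, which closes the ring to lanosterol, had 4.42 RPKM ipsilaterally and 3.35 RPKM contralaterally at 21 months, and 3.42 and 3.21 RPKM at 13 months. Tm7sf2, a sterol reductase, had 3.97 and 2.60 RPKM at 21 months, and 2.73 and 2.98 RPKM at 13 months. Its levels at 21 months were 1.53-fold apart, and the log2 ratio was 0.47 after adding 1 RPKM and 0.59, past 1.5-fold, after adding 0.1 RPKM. Cyp51, the lanosterol demethylase, and Sc5d, a sterol desaturase, were lower ipsilaterally at both ages, with log2 ratios of -0.15 and -0.29 at 21 months and of -0.12 and -0.30 at 13 months. Msmo1 and Nsdhl, which remove the remaining methyl groups, had ratios of 0.02 and 0.07 at 21 months and of -0.28 and -0.09 at 13 months. Dhcr7, which completes cholesterol, had 0.08 and -0.09 at these ages. Ebp (ENSRNOG00000004903, X chromosome), the sterol isomerase, had 10.7 RPKM ipsilaterally and 9.66 RPKM contralaterally at 21 months, and 12.2 and 8.44 RPKM at 13 months. Its ratios of 0.14 at 21 months and 0.48 at 13 months had the opposite order in age to those of Mvd and Mvk.

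Over the 17 synthesis enzymes, 10 were higher and 7 lower ipsilaterally at 21 months, and 2 were higher and 15 lower at 13 months. Either of the other scalings turned the split at 21 months round, to 7 higher and 10 lower, and left at least 15 lower at 13 months. Over all genes 60.8% were higher at 21 months and 48.9% were lower at 13 months. Their levels summed to 369 RPKM ipsilaterally and 377 RPKM contralaterally at 21 months, and to 345 and 400 RPKM at 13 months. Both ipsilateral libraries lay below both contralateral ones at 7 enzymes (Hmgcs1, Acat2, Pmvk, Fdft1, Sqle, Cyp51 and Sc5d), 7 of 17 against 22.1% of all genes, and above them at Lss and Ebp, 2 of 17 against 34.4%. Each of these separations was under 1.5-fold in every comparison of sides. The side ratio had opposite signs at the ages for 8 of 17 enzymes, against 34.5% of all genes, and for 5 of 17 under median-ratio scaling. The highest of the 4 libraries was the ipsilateral one at 21 months for 8 of 17 enzymes (Mvk, Mvd, Idi1, Fdps, Lss, Tm7sf2, Msmo1 and Dhcr7), against 33.1% of all genes. Oligodendrocyte markers were also highest in that library at 9 of 13 genes. That library had the largest RPKM sum, 402100, and the largest median-ratio factor, 1.051, and neither count was made under another scaling. The oligodendrocyte markers, none at 0, summed to 2999 RPKM there and 2530 RPKM contralaterally at 21 months. At 13 months they summed to 2244 and 2683 RPKM. Their part in the synthesis levels was not tested.

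The promoters of the synthesis enzymes with the largest difference of the side ratio between the ages are shown because these genes were high together in the ipsilateral library at 21 months, with those of 3 members that rose for comparison. Each is the 200 bases before the gene's start in RefSeq, build GRCr8, on the strand of the gene, which is the minus strand in all 8. Capitals mark CCAAT, the motif bound by the factor NF-Y that works beside SREBPs, or ATTGG where it lies on the other strand. The regions are chr19:67414975-67415174 for Mvd, chr12:47819504-47819703 for Mvk, chr1:212789542-212789741 for Tm7sf2, chr2:176804817-176805016 for Fdps and chr17:66547525-66547724 for Idi1.
Mvd: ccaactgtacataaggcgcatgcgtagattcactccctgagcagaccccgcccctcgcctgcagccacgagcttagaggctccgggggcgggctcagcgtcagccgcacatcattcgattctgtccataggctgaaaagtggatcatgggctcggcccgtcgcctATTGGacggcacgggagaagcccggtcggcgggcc
Mvk: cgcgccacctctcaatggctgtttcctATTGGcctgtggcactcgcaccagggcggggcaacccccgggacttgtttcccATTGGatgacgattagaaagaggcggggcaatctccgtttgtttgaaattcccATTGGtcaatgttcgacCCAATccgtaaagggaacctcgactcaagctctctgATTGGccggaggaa
Tm7sf2: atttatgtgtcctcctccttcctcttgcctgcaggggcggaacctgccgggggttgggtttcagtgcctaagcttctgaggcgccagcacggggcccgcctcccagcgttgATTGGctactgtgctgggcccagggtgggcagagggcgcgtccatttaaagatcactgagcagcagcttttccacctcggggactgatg
Fdps: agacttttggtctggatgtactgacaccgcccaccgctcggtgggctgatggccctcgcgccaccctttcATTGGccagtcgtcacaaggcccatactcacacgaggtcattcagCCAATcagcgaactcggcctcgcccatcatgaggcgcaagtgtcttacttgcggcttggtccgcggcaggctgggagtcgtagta
Idi1: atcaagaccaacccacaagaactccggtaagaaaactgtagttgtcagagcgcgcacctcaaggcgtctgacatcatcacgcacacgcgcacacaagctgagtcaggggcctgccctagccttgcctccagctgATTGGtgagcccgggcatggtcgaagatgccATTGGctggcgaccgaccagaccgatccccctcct

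The corresponding regions of the members that rose are chr13:71147673-71147872 for Soat1, chr1:241429367-241429566 for Ch25h and chr5:72596474-72596673 for Abca1.
Soat1: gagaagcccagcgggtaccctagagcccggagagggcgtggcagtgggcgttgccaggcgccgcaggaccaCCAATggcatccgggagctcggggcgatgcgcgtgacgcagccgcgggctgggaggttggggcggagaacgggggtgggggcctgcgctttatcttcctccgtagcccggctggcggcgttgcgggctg
Ch25h: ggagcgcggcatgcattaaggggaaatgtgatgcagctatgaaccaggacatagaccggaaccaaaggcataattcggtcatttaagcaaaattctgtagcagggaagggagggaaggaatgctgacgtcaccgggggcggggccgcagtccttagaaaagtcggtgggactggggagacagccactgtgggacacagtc
Abca1: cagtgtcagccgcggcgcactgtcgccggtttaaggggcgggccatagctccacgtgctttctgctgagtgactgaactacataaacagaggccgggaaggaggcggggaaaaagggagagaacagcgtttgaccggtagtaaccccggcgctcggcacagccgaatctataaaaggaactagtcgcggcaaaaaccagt

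Mvk held 5 such matches, starting 173, 120, 67, 50 and 14 bases before the start, Fdps and Idi1 held 2 each, and Mvd, Tm7sf2 and Soat1 held 1 each. Ch25h and Abca1 held 0 in the stretch shown. Windows of 300 bases, from 250 before to 50 after the start, were found for 28 of 32 members. CCAAT on either strand was in the windows of 11 of 14 synthesis enzymes and of 9 of 14 other members. The share was 38.3% of 8981 genes of the analysis with a window. Among these other members were 4 of 7 receptor, efflux and storage genes, Apoc1, Apoe, Plin2 and Soat1, of which Soat1 alone is shown. The GC box GGGCGG was in 12 of 14 synthesis enzymes, 11 of 14 other members and 5 of those 7, against 64.2%. A form of the sterol regulatory element, TCACNCCAC, matched in 0 of 28 members and in 1.15% of these genes, and the direct repeat bound by LXR receptors in 0 of 28 members and 0 of the 8981 genes. The LXR repeat was searched only in 1 exact form, with free letters in its spacer, and that form matched none of the 8981 genes. Variant forms of this repeat were not searched, so its 0 does not show that a window, that of Abca1 included, lacks one. All motifs were searched on both strands, and none of these strings contains another. A match or its absence describes the letters of this window, not binding by a factor.

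The control genes of synthesis lay on both sides of 0. Srebf1 (ENSRNOG00000003463, chromosome 10), whose product drives fatty acid and sterol synthesis and which is itself a known LXR target, had 11.7 RPKM ipsilaterally and 7.13 RPKM contralaterally at 21 months, and 7.51 and 7.31 RPKM at 13 months. It was high in the ipsilateral library at 21 months alone, with a log2 ratio of 0.64 at 21 months and 0.03 at 13 months, and did not pass limma (fitted 0.34 ± 0.18, SE, 2 libraries per side, adjusted p = 0.28). Under median-ratio scaling its ratio at 21 months was 0.55, short of 1.5-fold. Srebf2, the main driver of the sterol enzymes, had 12.4 and 12.3 RPKM at 21 months, and 11.0 and 14.5 RPKM at 13 months. Scap, the escort, had 13.2 and 10.3 RPKM at 21 months, and 9.55 and 10.3 RPKM at 13 months. Insig1 (ENSRNOG00000006859, chromosome 4), which retains the SREBP and Scap complex and is a known SREBP target, had 27.1 and 39.5 RPKM at 21 months, and 31.3 and 39.0 RPKM at 13 months. Both ipsilateral libraries lay below both contralateral ones, by log2 ratios of -0.53 at 21 months, which had 2.6% of all genes below it, and -0.31 at 13 months. Its fitted log2 difference of -0.42 ± 0.17 did not pass (SE, 2 libraries per side, adjusted p = 0.126 in limma). When mitochondrially encoded genes were left out of the scaling, its ratio at 21 months was -0.64, past 1.5-fold. Insig2, its relative, was also lower ipsilaterally at both ages, at -0.33 and -0.17.

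The LXR receptor genes differed from each other. Nr1h3 (ENSRNOG00000013172, chromosome 3), LXR alpha, the form of macrophages and liver, had 6.32 RPKM ipsilaterally and 2.82 RPKM contralaterally at 21 months, and 12.8 and 2.37 RPKM at 13 months. The sides did not overlap, and its fitted log2 rise was 1.49 ± 0.21 (SE, 2 libraries per side, adjusted p = 1.25e-05 in limma). Nr1h2, LXR beta, which is expressed broadly, had 25.8 and 19.2 RPKM at 21 months, and 19.8 and 19.7 RPKM at 13 months. It did not pass (fitted 0.21, adjusted p = 0.541 in limma), although the sides did not overlap by a small margin. The level of Nr1h3 was 0.245 of that of Nr1h2 ipsilaterally and 0.146 contralaterally at 21 months, and 0.65 and 0.12 at 13 months.

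All 4 efflux genes rose. Abca1 (ENSRNOG00000018126, chromosome 5), the transporter that loads cholesterol onto lipid-poor apolipoproteins, had 4.18 RPKM ipsilaterally and 1.48 RPKM contralaterally at 21 months, and 7.59 and 1.49 RPKM at 13 months. The contralateral libraries were nearly equal and far below both ipsilateral ones, and the fitted rise was 1.43 ± 0.19 (SE, 2 libraries per side, adjusted p = 5.25e-06 in limma). Abcg1 (ENSRNOG00000001158, chromosome 20), which passes cholesterol on to larger lipoproteins, had 19.3 and 11.4 RPKM at 21 months, and 16.9 and 12 RPKM at 13 months. It rose by 0.59 (adjusted p = 0.0205 in limma), a smaller difference than that of Abca1. The ratio of the levels of Abca1 and Abcg1 was 0.217 ipsilaterally and 0.13 contralaterally at 21 months, and 0.448 and 0.124 at 13 months.

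Apoe (ENSRNOG00000018454, chromosome 1), the main lipid carrier of the brain, was by far the most abundant member, with 4111 RPKM ipsilaterally and 3094 RPKM contralaterally at 21 months, and 5996 and 3065 RPKM at 13 months. The contralateral libraries differed little, and the rise of 0.69 ± 0.18 (SE, 2 libraries per side, adjusted p = 0.00951 in limma) came from ratios of 0.41 at 21 months and 0.97 at 13 months. Apoc1 (ENSRNOG00000018426, chromosome 1), a small apolipoprotein encoded beside Apoe and made by macrophages, had 19.5 and 12.9 RPKM at 21 months, and 39.9 and 21.2 RPKM at 13 months. It rose by 0.72 within ages (adjusted p = 0.00474 in limma), but the ipsilateral library at 21 months lay below the contralateral one at 13 months. Its ratio at 21 months was 0.56, short of 1.5-fold, and 0.59 after adding 0.1 RPKM. The calls of Apoe and Abcg1 were lost when mitochondrially encoded genes were left out of the scaling (adjusted p = 0.0794 and 0.0926), and that of Apoe also with an intensity trend in limma (adjusted p = 0.189).

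Both storage genes rose, and Plin2 had the highest ratio of all members at each age. Plin2 (ENSRNOG00000007060, chromosome 5), which coats lipid droplets and marks lipid-laden cells, had 41.3 RPKM ipsilaterally and 6.28 RPKM contralaterally at 21 months, and 65.8 and 7.51 RPKM at 13 months. These levels are 6.57-fold and 8.75-fold apart, and the log2 ratio lay above those of 99.5% of all genes at each age. Plin2 rose by 2.76 ± 0.18 (SE, 2 libraries per side, adjusted p = 1.42e-10 in limma). Soat1 (ENSRNOG00000004111, chromosome 13), which esterifies cholesterol for storage, had 6.78 and 2.12 RPKM at 21 months, and 8.41 and 2.35 RPKM at 13 months. Its ratios of 1.32 and 1.49 were close to each other, and it rose by 1.40 ± 0.17 (SE, 2 libraries per side, adjusted p = 1.76e-06 in limma). Plin2 stood at 0.516 of the level of the synthesis enzyme Hmgcs1 ipsilaterally and 0.0706 contralaterally at 21 months, and at 0.825 and 0.0764 at 13 months.

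The enzymes that oxidise cholesterol lay in opposite directions. Ch25h (ENSRNOG00000019141, chromosome 1), a hydroxylase that activated macrophages induce, had 11.0 RPKM ipsilaterally and 3.86 RPKM contralaterally at 21 months, and 16.3 and 4.05 RPKM at 13 months. It rose by 1.54 ± 0.18 (SE, 2 libraries per side, adjusted p = 8.04e-07 in limma), with no overlap of the sides. Cyp46a1 (ENSRNOG00000007147, chromosome 6), the hydroxylase by which neurons turn cholesterol into a form that leaves the brain, had 50.4 and 53.1 RPKM at 21 months, and 38.1 and 54.0 RPKM at 13 months. Both ipsilateral libraries were below both contralateral ones, but it did not pass (fitted -0.28, adjusted p = 0.362 in limma), and its 13 month ratio of -0.49 had 4.4% of all genes below it. Neuron markers had a median ratio of -0.28 at 21 months and -0.44 at 13 months over 11 genes. Their part in the level of Cyp46a1 was not tested.

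**Figure D2:**
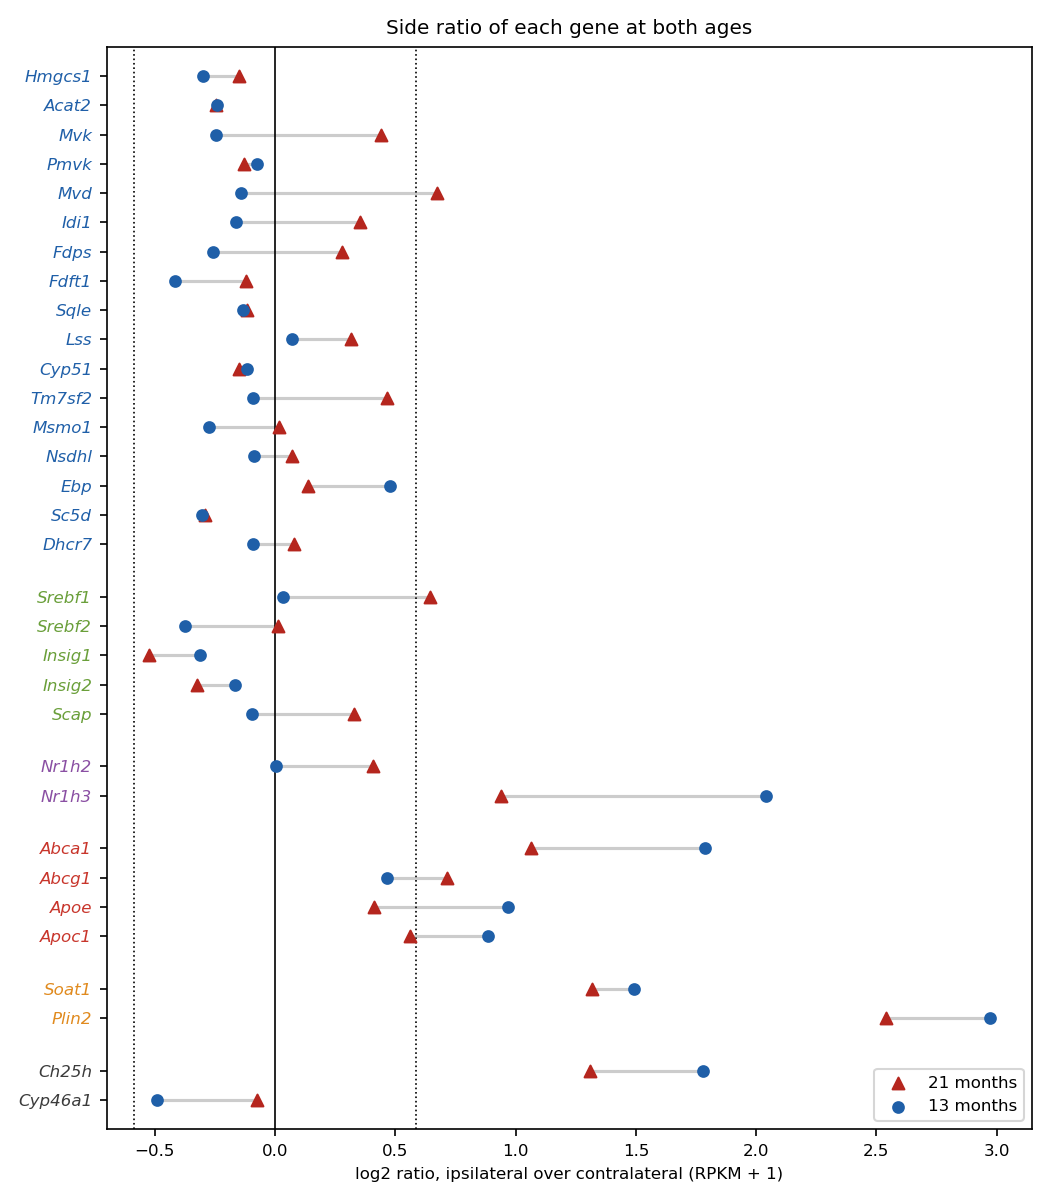
Log2 ratio of ipsilateral over contralateral RPKM (x axis, after adding 1 RPKM) of each member at 21 months (triangles) and 13 months (circles), with 1 library per side and age; dotted lines mark 1.5-fold. Synthesis enzymes lie between -0.42 and 0.67, while Plin2 lies at 2.54 and 2.97.

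The ages differed little on the contralateral side and more on the ipsilateral side. Between 21 and 13 months contralaterally, 1 of 32 members was 1.5-fold apart, Apoc1, with a log2 ratio of 21 over 13 months of -0.67. Over all genes 0.387% were lower and 0.658% higher by as much. Ipsilaterally 6 of 32 members were 1.5-fold apart, against 8.21% of all genes. Lower at 21 months were 4 of them, Apoc1 (-0.999), Nr1h3 (-0.92), Abca1 (-0.73) and Plin2 (-0.66), and higher were 2, Mvd (0.89) and Mvk (0.61). Srebf1, at 0.58, lay just short of that size, and past it, at 0.63, after adding 0.1 RPKM, and under median-ratio scaling Mvk did too, at 0.55. The median ratio of 21 over 13 months ipsilaterally was 0.22 for the synthesis enzymes and -0.60 for the receptor, efflux and storage genes, against 0.03 over all genes. Contralaterally these medians were -0.06 and -0.05, against -0.03 over all genes. Among enzymes with a mean of at least 5 RPKM this synthesis median was 0.072, since Lss, Acat2, Tm7sf2 and Dhcr7 drop out.

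Seen as the difference of the side ratio, 21 months minus 13 months, 3 of 32 members (9.38%) were past 1.5-fold upward, against 6.32% of all genes. These were Mvd (0.81), Mvk (0.69) and Srebf1 (0.61). Downward were 2 of 32 (6.25%), Nr1h3 (-1.10) and Abca1 (-0.72), against 4.83%. Under median-ratio scaling the difference of Srebf1 was 0.53, and with 0.1 RPKM added that of Tm7sf2 was also past the size, at 0.71. The difference had a median of 0.17 over the synthesis enzymes and of -0.38 over the receptor, efflux and storage genes, at an all-gene median of 0.05. It was above 0 for 13 of 17 synthesis enzymes and for 2 of 8 receptor, efflux and storage genes, against 55.7% of all genes. With 1 library in each group the difference between the ages was not tested. Set against each other across the 32 members, the ratios at 21 and 13 months gave r = 0.87 (Pearson) and rho = 0.75 (Spearman), and across the 17 synthesis enzymes alone r = 0.235 and rho = 0.33. Across all 12160 genes r was 0.77 and rho 0.52. These describe genes of the same 4 libraries, which are not independent of each other.

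**Figure D3:**
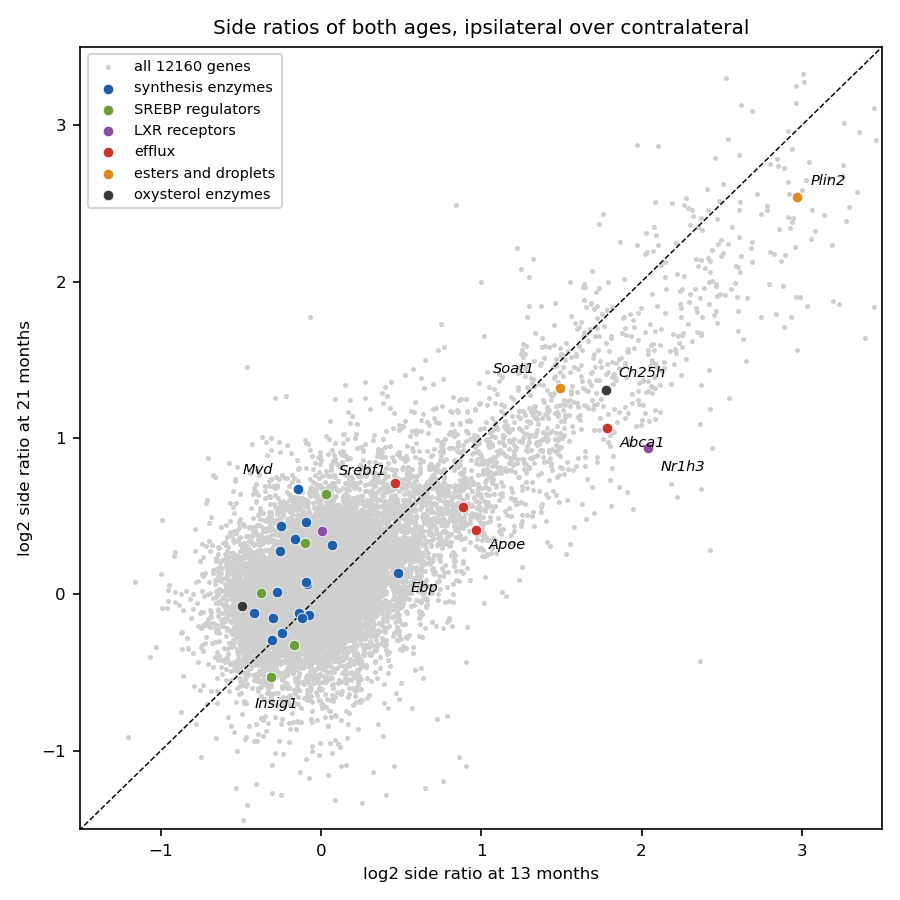
Log2 side ratio at 21 months (y axis) against that at 13 months (x axis), ipsilateral over contralateral, for all 12160 genes (grey) and the members (coloured by role), with the dashed line of equal ratios; 39 genes lie outside the axes. Nr1h3, Abca1, Ch25h and Plin2 lie to the right of the line and most synthesis enzymes above it, near 0.

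Further genes of the pathway came from lists by role. Of 21 listed genes of sterol and fatty acid synthesis and its control, 20 were matched and 18 reached a mean of 1 RPKM. Their median side ratio was 0.05 at 21 months and -0.21 at 13 months. By limma 2 of 18 rose, Mylip and Lbr, or 11.1% against 13.3% of all genes, and 0 fell, against 0.814%. Mylip, a ubiquitin ligase that limits lipoprotein uptake and a known LXR target, had 9.55 RPKM ipsilaterally and 5.53 RPKM contralaterally at 21 months, and 13.2 and 6.84 RPKM at 13 months, and rose by 0.78 (adjusted p = 0.00212 in limma). Lbr, a sterol reductase that is also a nuclear envelope protein, rose by 0.60 (adjusted p = 0.0193 in limma). Mbtps1, the protease that starts SREBP cleavage, had ratios of 0.19 at 21 months and 0.08 at 13 months. Among the lowest were Elovl6, which lengthens fatty acids (-0.12 and -0.26), and Acly, the source of cytosolic acetyl-CoA (-0.12 and -0.27), and these did not pass.

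Uptake was described by 16 lipoprotein and scavenger receptors, lysosomal sterol genes and their helpers, of which 14 reached a mean of 1 RPKM. Msr1 and Olr1 were under 1 RPKM in both contralateral libraries and reached that mean only through the ipsilateral ones, so their levels are given with no test. By limma 3 of the other 12 rose, against 13.3% of all genes, and 0 fell, against 0.814%. The shares of all genes were not limited by contralateral level in that way. Msr1, a scavenger receptor of macrophages, had 13.9 RPKM ipsilaterally and 0.46 RPKM contralaterally at 21 months, and 19.6 and 0.71 RPKM at 13 months. Olr1, a receptor for oxidised LDL, had 1.93 and 0.31 RPKM at 21 months, and 2.56 and 0.34 RPKM at 13 months. Npc2, which carries cholesterol out of lysosomes, had 140 and 61.5 RPKM at 21 months, and 146 and 57.3 RPKM at 13 months. Npc2 rose by 1.25 (adjusted p = 8.15e-06 in limma), and the scavenger receptor gene Scarb1 and the lysosomal lipase gene Lipa also rose. The lipoprotein receptor gene Lrp8 (-0.19 at 21 months and -0.29 at 13 months) and the lipase gene Lpl (-0.03 and -0.16) were among the lowest and did not pass.

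Of 25 further genes of efflux, lipoproteins, storage and bile acid steps, 23 were matched and 19 reached a mean of 1 RPKM, with a median side ratio of 0.47 at 21 months and 0.29 at 13 months. By limma 7 of 19 rose, or 36.8% against 13.3% of all genes, and 0 fell, against 0.814%. Tspo, a mitochondrial protein long used as an imaging marker of reactive glia and macrophages, had 9.64 RPKM ipsilaterally and 1.09 RPKM contralaterally at 21 months, and 8.45 and 1.24 RPKM at 13 months. Pltp, a phospholipid transfer protein and a known LXR target, had 88.2 and 19.1 RPKM at 21 months, and 64.8 and 25.3 RPKM at 13 months. Lpcat3, a phospholipid remodelling enzyme and a known LXR target, had 7.88 and 3.12 RPKM at 21 months, and 7.63 and 2.90 RPKM at 13 months. These rose by 2.21, 1.73 and 1.13 (adjusted p = 2.53e-09, 4.94e-07 and 3.1e-05 in limma), and Apod, Cyp7b1, Rxra and Plin3 rose as well. The neural transporter genes Abcg4 (-0.12 at 21 months and -0.58 at 13 months) and Abca2 (-0.13 and -0.31) were lowest and did not pass. Cyp27a1, a sterol hydroxylase, was the lowest with both ratios above 0 (0.53 and 0.01).

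**Figure D4:**
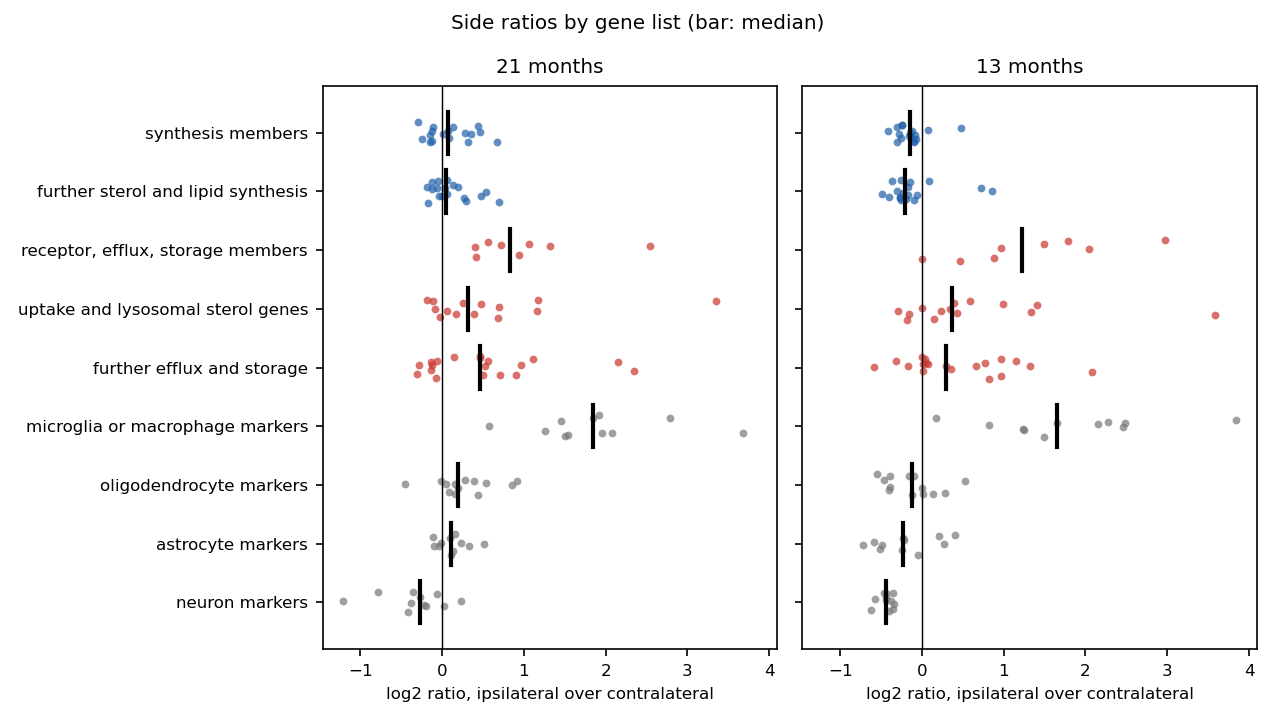
Log2 ratio of ipsilateral over contralateral RPKM (x axis) of the genes of 9 lists at 21 months (left) and 13 months (right), each point being 1 gene and each bar the median of its list. The receptor, efflux and storage members have medians of 0.83 and 1.23, below those of microglia or macrophage markers (1.84 and 1.65), while both synthesis lists lie near 0.

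Markers of microglia or macrophages and of phagocytic macrophages were also higher ipsilaterally, while no astrocyte marker passed limma. Microglia or macrophage markers were matched at 11 of 12 genes, and summed to 511 RPKM ipsilaterally and 138 RPKM contralaterally at 21 months, and to 513 and 154 RPKM at 13 months, with none at 0. By limma 10 of 11 rose, against 13.3% of all genes, from Cx3cr1 (1.04) to Cd68 (3.76), and Tmem119, a marker of resident microglia, did not pass (0.37, adjusted p = 0.197). Markers of phagocytic macrophages summed to 1386 and 160 RPKM at 21 months, and to 2211 and 209 RPKM at 13 months, where the sums cover all 10 genes, 3 of them under a mean of 1 RPKM. Of this list 6 genes reached 1 RPKM in at least 1 contralateral library, and all 6 rose by limma, against 13.3% of all genes. They include Spp1 (5.12) and Lgals3 (4.50), which were above 1 RPKM in all 4 libraries. The share of all genes was not limited by contralateral level in that way. The sum over the phagocytic list was lower ipsilaterally at 21 months than at 13 months. Spp1 alone made up 488 RPKM of it at 21 months and 901 RPKM at 13 months. The ipsilateral levels of Nr1h3, Abca1, Plin2, Soat1, Ch25h, Apoe and Apoc1 were also lower at 21 months. Those of Abcg1 (19.28 RPKM at 21 months and 16.95 RPKM at 13 months) and Nr1h2 (25.82 and 19.77 RPKM) were higher. The sum of the microglia or macrophage list was close to equal in the ipsilateral libraries. Astrocyte markers, from cells that make Apoe in the healthy brain, had median ratios of 0.11 at 21 months and -0.23 at 13 months, and 0 of 11 passed limma in either direction, with 2 of 11 above and 0 below 0 at an unadjusted p under 0.05, against 18.9% and 4.47% of all genes. They summed to 2379 and 2190 RPKM at 21 months, and to 2081 and 2360 RPKM at 13 months. The part of any of these cell types in the levels of the members was not tested.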

How the data were processed

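Polyadenylated RNA of rat brain tissue was sequenced, and the authors deposited 1 table of RPKM values in 4 columns, rounded to 2 decimals, which were matched to samples by age and side code of the titles. Per the submitters' processing notes, cutadapt, TopHat2 and edgeR were used, with no role or version stated, and the build is the human GRCh38, although the gene identifiers are of rat. Counting, gene lengths and depth are not stated, so chromosomes are those of the table.

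Values were analysed as log2(RPKM + 1) for genes averaging 1 RPKM or more. Side ratios (ipsilateral over contralateral) and age ratios (21 over 13 months) of single libraries were described without a test, and a gene was counted from 1.5-fold (0.585 on the log2 scale). limma (version 3.58.1, R 4.3.3) took side and age as additive terms across all genes (eBayes, two-sided, called under 0.05 after Benjamini-Hochberg adjustment). It was tested on simulated data in which all genes had the same spread. Genes of unequal spread were not simulated, so that run does not check the p-values given here. The ages stand in for repeats, and RNA was pooled. The p-values of limma therefore measure only the spread between these libraries, estimated mostly over all genes together.

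The members and lists were chosen with earlier results of these data known. All members are named. Of each further pathway list the 3 highest and 3 lowest genes are named, ranked by the smaller of a gene's side ratios where these share a sign, with those limma called, and a few of these are not reported here. Markers of 9 tissues or cell types are given as lists, with at most the 2 highest and 2 lowest genes of a list. Promoter windows came from RefSeq (GRCr8) by symbol, and the motifs and the genes shown were chosen after the values were seen. Alternatives were another pseudocount (0.1 RPKM), no filter, a mean of 5 RPKM or more, scaling by median ratios, scaling without mitochondrially encoded genes, summing rows that share a symbol, and an intensity trend in limma.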

Additional observations from a re-analysis of the deposited data

Results flagged for a closer look

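Side ratios had opposite sign at the ages for 10 members, higher ipsilaterally at 21 months and lower at 13 months, which is 31.2% of the 32 members, against 34.5% of all genes. The difference of the log2 side ratio, 21 months minus 13 months, was 0.81 for Mvd, 0.69 for Mvk, 0.56 for Tm7sf2, 0.54 for Fdps and 0.51 for Idi1. It was 0.42 for Scap, 0.39 for Srebf2, 0.29 for Msmo1, 0.17 for Dhcr7 and 0.16 for Nsdhl. Each rests on 1 library per side and age, and the difference was not tested. Of these 10 differences, those of Mvd and Mvk were past 1.5-fold after adding 1 RPKM, and that of Tm7sf2 was as well, at 0.71, after adding 0.1 RPKM. Under median-ratio scaling 7 members had opposite signs. Msmo1, Nsdhl, Dhcr7 and Srebf2 were no longer among them, and Nr1h2 was added. With mitochondrially encoded genes left out of the scaling 9 members did, where the same genes were lost and Lss, Srebf1 and Nr1h2 were added.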

How the results depend on the processing

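No library could be left out, since each group held 1, and the ratios at each age are the values without the other age. Counts of members past 1.5-fold or called by limma, and medians of the synthesis and of the receptor, efflux and storage genes, were recomputed. These used 7 alternatives (limma counts) or 6 (ratios). Without the filter, limma called 0 members that rose in place of 8. There 2641 genes rose and 719 fell at an unadjusted p under 0.05 in limma, and 0 after adjustment. The prior degrees of freedom were 1.56 there and 19.5 with the filter, while the fitted difference of Plin2 was 2.755 in both. With a mean of at least 5 RPKM, which leaves 26 members, 3 were past 1.5-fold upward at both ages, and for 1 the side ratio was lower by that size at 21 than at 13 months. Under that filter the receptor, efflux and storage median was 0.64 at 21 months and 0.93 at 13 months, and its distance from the synthesis median 0.62 and 1.09, and -0.67 between the ages ipsilaterally, where the synthesis median was 0.072. With 0.1 RPKM added, the receptor, efflux and storage median was 0.95 at 21 months and 1.38 at 13 months, and the distance 0.87 and 1.55. Median-ratio scaling left 1 member higher by 1.5-fold at 21 than at 13 months ipsilaterally and put 1 lower ipsilaterally at 21 months. Scaling without mitochondrially encoded genes put 1 member lower by 1.5-fold at 21 months (Insig1) and 1 at 13 months (Cyp46a1), and gave a synthesis median of -0.032 at 21 months. The cause of these shifts was not tested. No called value changed its sign under any of these alternatives. Precision is limited by unknown depth and pooled, unrepeated libraries.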
